A study of Mus musculus with 36 samples.

Results

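Sterol sensing, storage and efflux in microglia, the resident macrophages of the brain, was followed through 8 named genes of the 26348 genes in the count files. The genes were Insig1, Nr1h3 and Nr1h2, which sense sterols or answer to them, Soat1 and Ch25h, which modify cholesterol, Abca1 and Abcg1, which move it out of the cell, and Mylip, which limits its uptake. They were chosen by name with earlier results of these data known, and those results had compared CD11c-positive with CD11c-negative cells. All 8 were found in the files, and 7 passed the filter on low counts. The gene left out was Nr1h3, with 25 counts in all.

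Single microglia came from male mice aged 6 months, sorted from cortex and from hippocampus. The transgenic animals carried APPswe/PSEN1dE9 (APP/PS1), human-type transgenes with which mice deposit amyloid, and are called APP mice here; the others were controls, written WT as in the titles. The labels do not name the promoter that drives the transgenes, and a difference between the genotypes cannot be divided between transgene expression and amyloid. Cells were gated by FACS as CD11b-high and CD45-intermediate, and the CD11c gate then gave CD11c-positive APP cells (587 cells in 4 replicates from cortex, 362 cells in 3 replicates from hippocampus), CD11c-negative APP cells (454 and 426 cells, 4 replicates each) and CD11c-negative WT cells (390 and 438 cells, 4 replicates each). A replicate is the sum of the cells of 1 animal, region and gate, except that the hippocampal CD11c-positive replicates named 1-2 and 2-3 may be pools that share an animal.

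Of all 36 libraries, 17 carry a genotype tag that differs from the genotype in their title; groups follow the titles, and results are also given without those libraries where this ends a call. All libraries of CD11c-positive hippocampal cells carry such a tag. Without all 17 libraries, replicates 3 and 4 stay in CD11c-negative APP cortex and replicates 1 and 4 in WT cortex. Replicates 1, 2 and 4 stay in CD11c-positive APP cortex and in CD11c-negative APP hippocampus. WT hippocampus keeps replicates 3 and 4 and a part of replicate 1. Fits without these libraries thus rest on fewer replicates. The titles also carry a leading number of unstated meaning. No such number occurs in both genotypes, in both regions or in both gates of APP hippocampus, while the gates of APP cortex share their numbers. A library set, if the number marks one, cannot be told apart from the genotype, the region or the hippocampal gate. The replicates held 1037425 to 4484427 counts. Itgax, which encodes CD11c, lay at 85.0 to 194 CPM in CD11c-positive cortical cells and at 64.2 to 83.9 CPM in CD11c-positive hippocampal cells, against 0 to 31.8 CPM in the CD11c-negative groups. All 10 microglial markers examined had counts in every group, and 82 of 83 barcode sequences occurred in more than 1 library, as fixed barcodes of a plate layout do.

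Cells keep their free cholesterol within narrow limits. When sterols are plentiful, INSIG proteins hold the SCAP-SREBP complex in the endoplasmic reticulum and so keep the genes of cholesterol synthesis and uptake low, while oxysterols activate the liver X receptors, which switch on genes of cholesterol export. Insig1 is itself a target of SREBP. In the brain, where cholesterol does not cross from the blood, microglia take up cholesterol with myelin debris and lipoproteins, store a part of it as esters and hand it on to lipoproteins that carry apolipoprotein E.

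Promoters of Insig1, Soat1 and Ch25h, the 3 members called higher in CD11c-positive cells in at least 1 region, are shown, each from 250 bases before to 50 bases after the annotated start and read on the strand of the gene, as RefSeq gives them on GRCm38.p6. Insig1 lies on the plus strand (chr5:28071162-28071461), Soat1 on the minus strand (chr1:156474279-156474578) and Ch25h on the minus strand (chr19:34475099-34475398). Capitals mark matches to the motifs searched.
Insig1: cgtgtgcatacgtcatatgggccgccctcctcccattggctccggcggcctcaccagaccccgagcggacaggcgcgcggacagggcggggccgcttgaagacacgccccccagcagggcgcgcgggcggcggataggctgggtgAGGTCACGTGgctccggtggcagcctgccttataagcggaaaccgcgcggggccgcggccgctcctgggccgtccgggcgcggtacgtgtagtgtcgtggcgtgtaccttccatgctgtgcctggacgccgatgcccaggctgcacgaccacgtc
Soat1: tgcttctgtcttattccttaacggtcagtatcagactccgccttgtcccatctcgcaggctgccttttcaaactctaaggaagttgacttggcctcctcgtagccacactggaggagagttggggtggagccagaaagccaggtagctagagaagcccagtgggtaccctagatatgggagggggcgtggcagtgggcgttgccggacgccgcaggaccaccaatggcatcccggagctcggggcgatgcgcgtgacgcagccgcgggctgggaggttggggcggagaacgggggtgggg
Ch25h: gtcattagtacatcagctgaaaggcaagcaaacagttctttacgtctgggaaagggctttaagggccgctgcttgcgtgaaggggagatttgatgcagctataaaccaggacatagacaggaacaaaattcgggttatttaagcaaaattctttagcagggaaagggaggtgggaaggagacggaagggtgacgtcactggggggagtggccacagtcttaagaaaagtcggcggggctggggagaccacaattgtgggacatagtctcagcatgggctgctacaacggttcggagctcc
Both strands were searched for exact matches to 4 motifs: the core TCACNCCAC of a sterol regulatory element, the E-box CACGTG, the nuclear receptor half-site AGGTCA, and its direct repeat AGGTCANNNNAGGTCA with 4 bases between. The last is a consensus form of the sites bound by liver X receptors, and sites that depart from it were not searched for. The Insig1 window held an E-box 101 bases and a half-site 105 bases before the start, and the 2 matches overlap in the run in capitals. E-boxes occur in 7.15% and half-sites in 16.3% of the 32851 promoter windows of the same length. The Soat1 and Ch25h windows held no exact match to these motifs. No exact match to the sterol regulatory element core (1.24% of windows) or the direct repeat (0.0152%) was found in the windows of the members. This does not show that inexact sites are absent from these windows, and Abcg1 had no window. Among the other members with a window, Abca1 had 1 E-box.

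Insig1 encodes an endoplasmic reticulum protein that retains SCAP when sterols are plentiful. Its gene spans chr5:28071363-28078662 in GENCODE vM21 on GRCm38. Levels are counts scaled by library size with TMM factors (CPM), a scale on which 1 gene can be compared between replicates. In cortex, Insig1 had 1254, 1237, 1132 and 1493 CPM in the CD11c-positive APP replicates and 490, 387, 328 and 543 CPM in the CD11c-negative APP replicates. WT cortex had 362, 658, 232 and 573 CPM. All 4 CD11c-positive cortical replicates lay above all 8 CD11c-negative ones, which overlapped between the genotypes.

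In hippocampus, Insig1 had 700, 851 and 619 CPM in the CD11c-positive APP replicates and 149, 113, 98.4 and 76.9 CPM in the CD11c-negative APP replicates. WT hippocampus had 530, 320, 668 and 517 CPM. CD11c-negative APP hippocampus thus held the lowest replicates of all groups, with no overlap with any other group. By mean, the order was CD11c-positive cortex (1279 ± 152 CPM, SD, n = 4), CD11c-positive hippocampus (723 ± 118, n = 3), WT hippocampus (509 ± 143, n = 4), WT cortex (456 ± 195, n = 4), CD11c-negative APP cortex (437 ± 97.5, n = 4) and CD11c-negative APP hippocampus (109 ± 30.4, n = 4). Ranges of neighbours in this order overlapped, except that CD11c-positive cortex lay apart at the top and CD11c-negative APP hippocampus at the bottom.

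**Figure D1:**
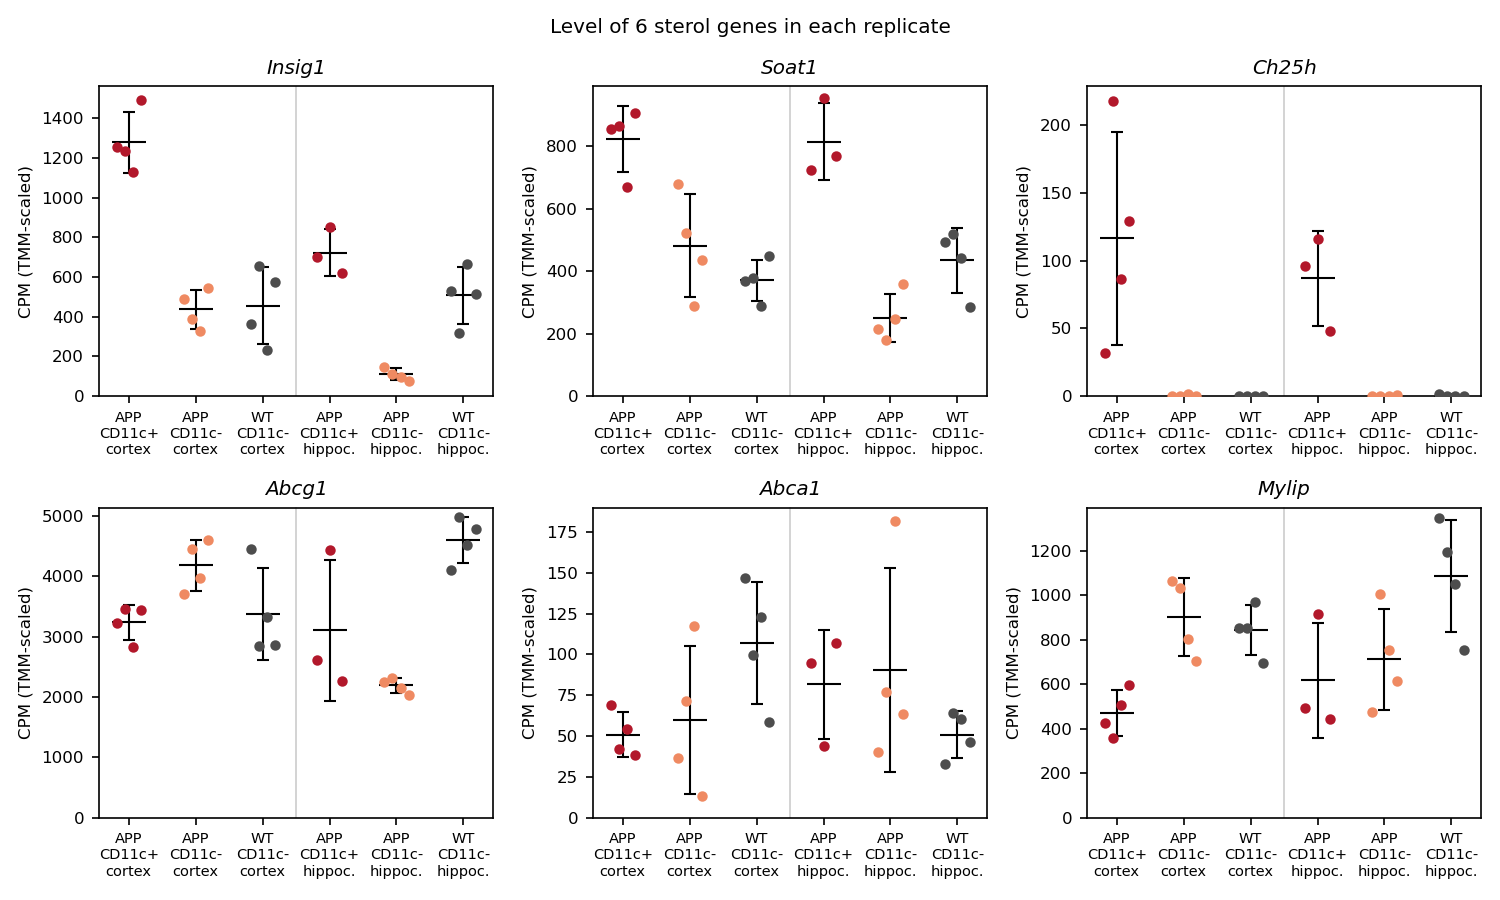
Level (y axis, CPM with TMM scaling, linear from 0) of Insig1, Soat1, Ch25h, Abcg1, Abca1 and Mylip in every replicate (points), by genotype and CD11c gate, with cortex left and hippocampus right of the grey line; bars show the mean and SD over 3 or 4 replicates. Insig1 is high in the CD11c-positive groups and lowest in CD11c-negative APP hippocampus, and Ch25h is near 0 outside the CD11c-positive groups.

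Soat1 (chr1:156424525-156474331) encodes the enzyme that esterifies cholesterol for storage in lipid droplets. It had 855, 867, 669 and 905 CPM in CD11c-positive APP cortex, 681, 523, 287 and 437 CPM in CD11c-negative cells of APP cortex, and 368, 378, 289 and 450 CPM in WT cortex. The CD11c-positive range met the CD11c-negative APP range at a single replicate on either side and lay above the WT range. In hippocampus it had 723, 954 and 769 CPM in CD11c-positive APP cells, 215, 181, 246 and 360 CPM in the CD11c-negative APP cells, and 492, 519, 443 and 285 CPM in WT cells. The CD11c-positive hippocampal replicates lay above all others of the region, and the CD11c-negative APP range overlapped the WT range.

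Ch25h (chr19:34473778-34475164, a single exon) encodes the enzyme that makes 25-hydroxycholesterol, an oxysterol that activates liver X receptors and binds INSIG proteins. It had 31.8, 218, 86.6 and 129 CPM in CD11c-positive APP cortex and 96.3, 116 and 48.0 CPM in CD11c-positive APP hippocampus. No replicate of the CD11c-negative groups exceeded 1.80 CPM. Summed over each group, 1620 counts were found in CD11c-positive and 4 in CD11c-negative APP cortex, a ratio of 287 per total count with an exact 95% interval of 112 to 1056. The sums in APP hippocampus were 861 and 1 counts, a ratio of 891 (160 to 35243). These intervals take each count as an independent draw and leave out the spread between cells and replicates. In CD11c-positive cortical replicate 1, 114 of 136 counts came from 1 cell, so the intervals are too narrow. WT cortex had 0 counts. CD11c-positive cortex was 346-fold higher than a floor of 3 counts over that group. The exact 95% lower limit of the ratio was 281, again with each count taken as independent. WT hippocampus had 6 counts. Exons of Ch25h overlap those of Gm26902 on the opposite strand, which had 199 counts in all replicates; the sources used here do not say whether counting used the strand.

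The gate comparisons are the ones with which the genes had been chosen, so their differences are a description. The log2 fold change of CD11c-positive over CD11c-negative APP cells was 1.55 ± 0.29 (SE) in cortex and 2.72 ± 0.31 in hippocampus for Insig1, and 0.77 ± 0.26 in cortex and 1.70 ± 0.28 in hippocampus for Soat1. In cortex 2 of the 7 members tested were called higher and 0 lower by edgeR's quasi-likelihood test at a Benjamini-Hochberg adjusted p under 0.05 over all 14892 genes, where 1.23% of all genes were called. In hippocampus 3 of 7 were called higher and 0 lower, where 0.551% of all genes were called. These were Insig1 and Ch25h in both regions and Soat1 in hippocampus, and nothing is read from the shares. Ch25h had counts in at most 1 replicate of each CD11c-negative group. It thus passed the filter on low counts only through the CD11c-positive groups, where it is high, and its calls are no separate support. The median log2 fold change of the 7 members was -0.23 in cortex, against 0.19 over all genes tested, and 0.50 in hippocampus, against 0.

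Detected genes per cell moved with the gate. Their means ran from 964 to 1354 in CD11c-positive against 658 to 957 in CD11c-negative APP cortex, and from 1062 to 1438 against 814 to 954 in APP hippocampus. With the number of detected genes as a covariate the Insig1 difference in cortex was 1.32 and was no longer called, and the hippocampal difference kept its call. Without the libraries of differing genotype tag the cortical Insig1 value was 1.56, also no longer called. Ch25h lost its call in both regions when some single replicates were left out (CD11c-positive replicates 2 and 4 and CD11c-negative replicates 1, 2 and 4 in cortex; every CD11c-positive replicate and CD11c-negative replicates 1, 2 and 3 in hippocampus), in both regions with detected genes as a covariate, and in cortex without the libraries of differing tag. The summed level of the 10 microglial markers also differed by gate, at 7046 to 8270 CPM in CD11c-positive against 10524 to 13301 CPM in CD11c-negative cells of APP cortex. Their range was 10218 to 12242 against 18210 to 21089 CPM in APP hippocampus. In cortex the 6 oligodendrocyte markers summed to 379 to 508 CPM in CD11c-positive against 132 to 268 CPM in CD11c-negative APP cells, and the mean mitochondrial share was 2.08 to 2.90% against 0.927 to 1.47%. In hippocampus the mitochondrial share was 2.02 to 2.58% against 1.11 to 1.33%. There the 5 markers of border macrophages in the files summed to 23.2 to 47.1 CPM in CD11c-positive against 0 to 12.1 CPM in CD11c-negative APP cells, with Cd163 and Cbr2 at 0 in both gates and Pf4 and F13a1 at 0 in CD11c-negative cells. The 6 astrocyte markers of hippocampus summed to 134 to 145 CPM against 175 to 384 CPM, with Gfap, Aqp4 and Aldh1l1 at 0 in both gates and Clu at 0 in CD11c-negative cells. The part of markers and mitochondrial share in the gate differences was not tested.

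The CD11c-positive differences were seen in shares of cells as well as in sums. The shares come from the same gate comparison as the sums and are no separate support. To make total counts equal, each cell was thinned to 5000 counts, which left out 73 shallower cells. Median detected genes before thinning were 1018 in CD11c-positive against 652 in CD11c-negative APP cortex. In APP hippocampus they were 1250 against 860.5. The part of this difference in the thinned shares was not tested. Insig1 was then detected in 58.8% of CD11c-positive against 17.0% of CD11c-negative APP cells of cortex, and in 41.4% against 9.54% of those of hippocampus. Unthinned, the shares were 65.9% and 26.9% in cortex (exact 95% binomial intervals 61.9 to 69.8% and 22.8 to 31.2%). In hippocampus they were 56.4% and 14.1% (51.1 to 61.5% and 10.9 to 17.8%). These intervals take cells as independent and leave out the spread between replicates. By replicate, the unthinned shares ran from 61.0 to 73.4% in CD11c-positive and from 21.3 to 36.7% in CD11c-negative APP cortex. In APP hippocampus every CD11c-positive replicate lay at 51.0% or above, against 8.28 to 24.6% in CD11c-negative replicates. Cells with any Insig1 count held, unthinned, a median of 33 counts in CD11c-positive, 5 in CD11c-negative APP and 21 in WT cortex. In hippocampus the medians were 19 in CD11c-positive, 3.5 in CD11c-negative APP and 4 in WT cells.

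**Figure D2:**
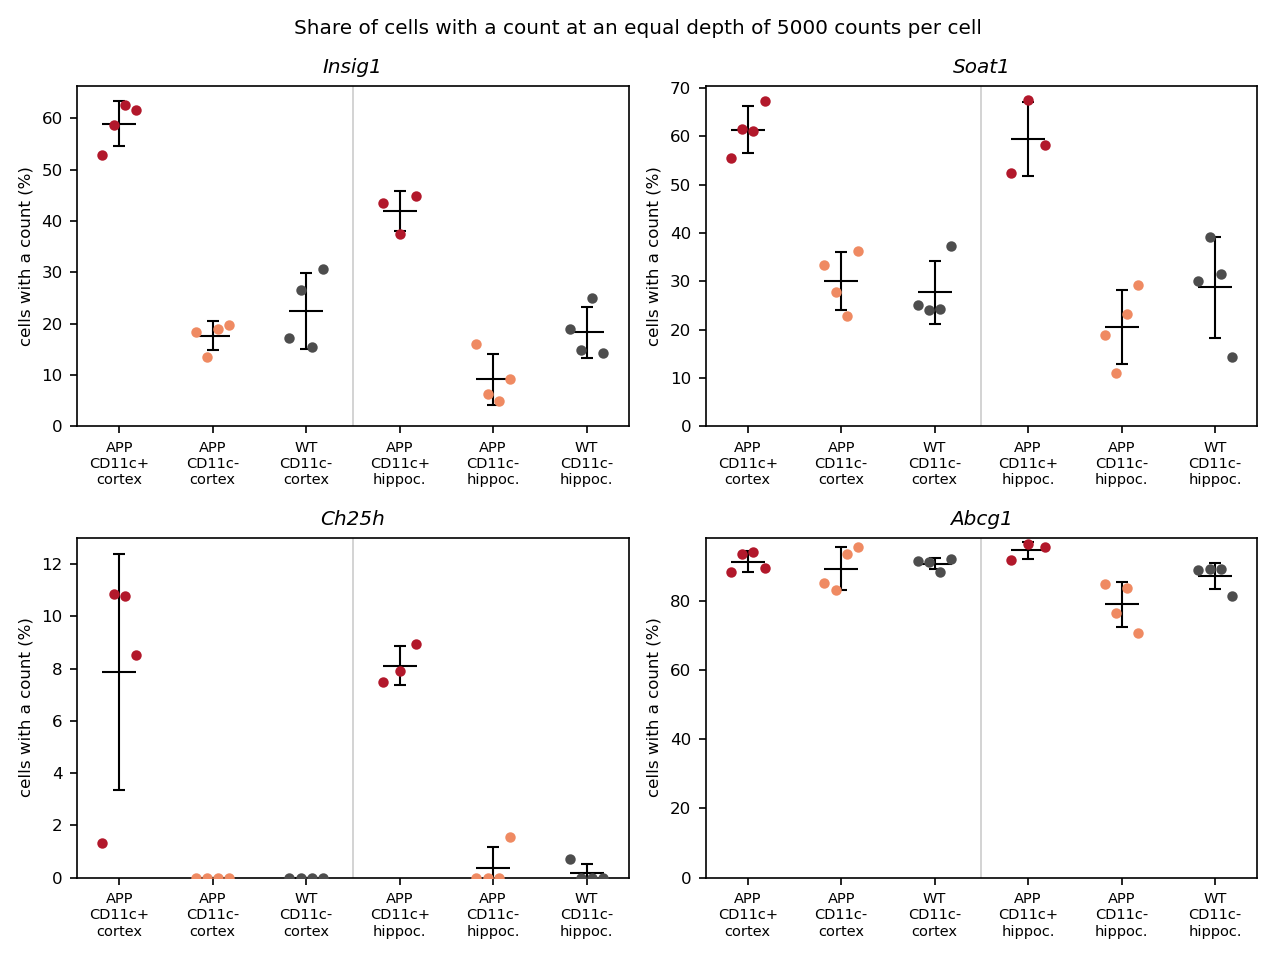
Share of cells with at least 1 count (y axis, percent of cells thinned to 5000 counts, linear from 0) of Insig1, Soat1, Ch25h and Abcg1 in every replicate (points), by group, with cortex left and hippocampus right of the grey line; bars show the mean and SD over replicates. Insig1 and Soat1 are found in more cells of the CD11c-positive groups, while most cells of every group hold Abcg1.

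Soat1 had a count in 61.3% of CD11c-positive against 30.0% of CD11c-negative APP cells of cortex after thinning, and in 59.5% against 20.8% in hippocampus. WT cells lay at 27.1% in cortex and 29.5% in hippocampus. Ch25h was found in a minority of the CD11c-positive cells, 50 of 587 in cortex (8.52%) and 38 of 362 in hippocampus (10.5%), unthinned. By replicate the cortical share ran from 1.30 to 12.6%. Cells with Ch25h held a median of 27.5 counts of it in cortex and 7.5 in hippocampus, so that the sums rest on few cells. In WT cortex 0 of 390 cells had a count, which allows a share of up to 0.769%.

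Within CD11c-positive cortex, Insig1 had a count in 43 of the 50 cells with Ch25h (86.0%), against 344 of the 537 cells without (64.1%). In CD11c-positive hippocampus it was found in 27 of 38 cells with Ch25h (71.1%), against 177 of 324 without (54.6%). Cells with Ch25h also had more detected genes, with a median of 1216 against 1006 in cortex and 1347 against 1240 in hippocampus, and the part of this in the shares was not tested. These cells share animals and libraries, and the shares are given without a test.

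Abcg1 and Abca1 encode transporters that hand cholesterol to lipoproteins, Abcg1 to mature high-density particles and Abca1 to lipid-poor apolipoproteins. Abcg1 (chr17:31057675-31117988) had 3222, 3456, 2830 and 3433 CPM in CD11c-positive APP cortex, 3700, 4444, 3967 and 4606 CPM in CD11c-negative cells of APP cortex, and 4458, 2844, 3318 and 2865 CPM in WT cortex. The CD11c-positive cortical replicates lay below the CD11c-negative APP replicates, and both overlapped the WT range. In hippocampus it had 2616, 4428 and 2259 CPM in CD11c-positive APP cells, 2254, 2317, 2152 and 2036 CPM in the CD11c-negative APP cells, and 4107, 4987, 4524 and 4788 CPM in WT cells. All 4 CD11c-negative APP hippocampal replicates lay below all WT hippocampal ones, while 1 CD11c-positive replicate reached the WT range.

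The log2 fold change of Abcg1 over the gate was -0.37 ± 0.16 in cortex and 0.50 ± 0.17 in hippocampus (SE), neither of them called. The hippocampal value was 0.12 without CD11c-positive replicate 2-3, 0.29 with RLE scaling and 0.84 with detected genes as a covariate. The gates of cortex were paired by animal; with the animal as a block and only these 2 groups in the fit, the cortical value was -0.44 and was called. By mean level the order of the groups was WT hippocampus (4601 ± 380 CPM, n = 4), CD11c-negative APP cortex (4179 ± 419, n = 4), WT cortex (3372 ± 757, n = 4), CD11c-positive cortex (3235 ± 290, n = 4), CD11c-positive hippocampus (3101 ± 1163, n = 3) and CD11c-negative APP hippocampus (2190 ± 123, n = 4). The ranges of every pair of neighbours in this order overlapped.

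Abca1 (chr4:53030787-53159895) was sparse. Group means ran from 50.9 to 107 CPM, with replicates from 13.3 to 182 CPM, and the ranges of CD11c-positive and CD11c-negative APP cells overlapped in both regions. It was detected in 6.81% of CD11c-positive against 6.61% of CD11c-negative APP cells of cortex and in 13.3% against 8.69% of those of hippocampus, unthinned, against 10.5% of WT cortical and 4.34% of WT hippocampal cells. In several replicates most of its counts came from a single cell, as in CD11c-negative APP cortex, where 93 of 116 counts of replicate 1 did (80.2%).

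Mylip (chr13:45389742-45412022) encodes IDOL, a ubiquitin ligase that sends the LDL receptor to degradation and is induced by liver X receptors. It had 425, 360, 505 and 595 CPM in CD11c-positive APP cortex, 1066, 1035, 805 and 707 CPM in CD11c-negative cells of APP cortex, and 855, 853, 973 and 698 CPM in WT cortex. All CD11c-positive cortical replicates lay below all CD11c-negative ones of both genotypes, a log2 fold change of -0.94 ± 0.25 (SE) within APP cortex. Its hippocampal levels were 493, 917 and 443 CPM in CD11c-positive APP cells, 476, 1008, 752 and 617 CPM in the CD11c-negative APP cells, and 1347, 1196, 1052 and 754 CPM in WT cells. There the 2 gates overlapped, with -0.21 ± 0.27.

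Of the liver X receptors, Nr1h2 was sparse and Nr1h3 was near the limit of detection. Nr1h2 (chr7:44549616-44553951), which encodes LXR-beta, averaged 25.0 to 50.1 CPM over the groups and was found in 1.83 to 8.01% of cells. In WT hippocampus a single cell held 55 of 55, 71 of 73 and 128 of 128 of its counts in replicates 2, 3 and 4. Nr1h3 (chr2:91184061-91202834), which encodes LXR-alpha, had 22 counts in 1 CD11c-positive cortical cell and 1 count each in 3 CD11c-negative cells of other groups. In CD11c-positive hippocampus 0 of 362 cells had a count, which allows a share of up to 0.829%, so differences of this receptor between groups were not detectable at this depth.

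Next, CD11c-negative cells were compared between the genotypes, which asks how microglia outside the CD11c-positive subset differ in APP mice. The APP replicates of hippocampus also served as the CD11c-negative side of the hippocampal gate, with which the members had been chosen, so these values are not free of that choice. In hippocampus 2 of the 7 members fell and 0 rose in APP cells, where 1.52% of all genes were called, 49 higher and 177 lower. Insig1 fell (log2 fold change -2.21 ± 0.30, SE; adjusted p = 9.02e-05, edgeR) and Abcg1 fell (-1.07 ± 0.16; adjusted p = 0.000212, edgeR), each lower in 4 of 4 APP replicates than in any of 4 WT replicates. Soat1 at -0.80 ± 0.26 (adjusted p = 0.15, edgeR) and Mylip at -0.61 ± 0.25 (adjusted p = 0.24, edgeR) did not pass. Over the 7 members the median was -0.80, against 0.01 over all genes tested.

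The lower sums were also read per cell. A single cell held 20.2 to 48.9% of the Insig1 counts of an APP replicate and 14.8 to 35.6% of those of a WT replicate. The Insig1 sums thus rest in part on few cells. For Abcg1 the top cell held 4.51 to 14.5% in APP and 3.81 to 10.7% in WT replicates. Insig1 had a count in 9.54% of CD11c-negative APP and 19.4% of WT hippocampal cells after thinning to 5000 counts, and cells with any count held a median of 3.5 counts in APP against 4 in WT. By replicate the thinned share was 9.09 ± 4.91% in APP and 18.3 ± 4.94% in WT (SD, n = 4 each), a difference of -9.17 percentage points (exact permutation test, two-sided p = 0.086, adjusted over both genes 0.086). Abcg1 was found in most cells of both genotypes, 79.0 ± 6.59% against 87.2 ± 3.84% by replicate (exact permutation test, two-sided p = 0.086, adjusted 0.086), while the median count of cells with any was 32.5 in APP and 62 in WT. The smallest p this test can give with 4 replicates a group is 0.029.

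**Figure D3:**
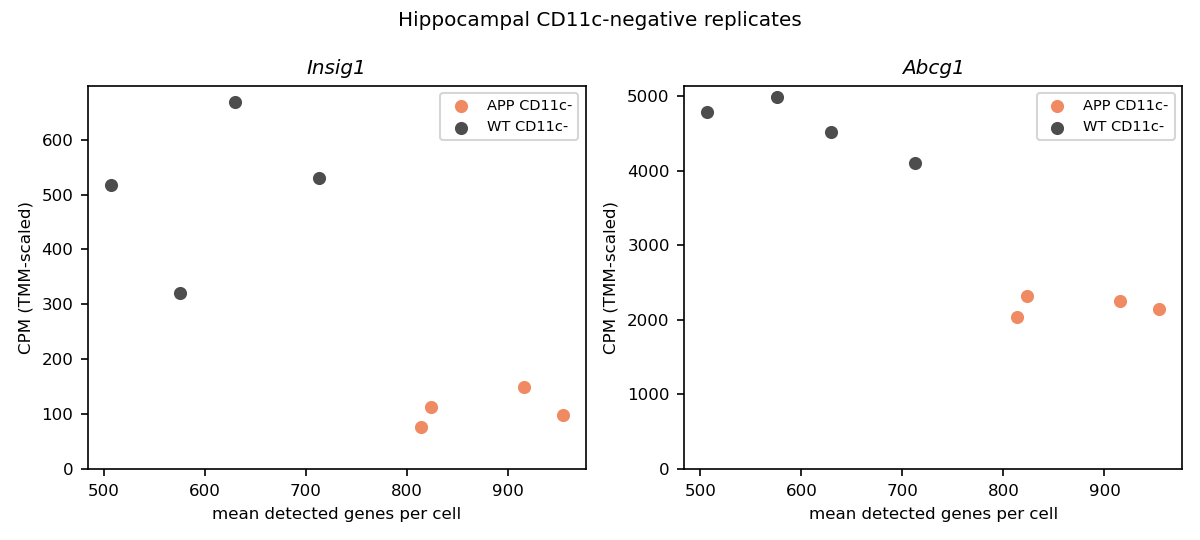
Level of Insig1 (left) and Abcg1 (right) in CPM with TMM scaling (y axes, linear from 0) against the mean number of detected genes per cell (x axes) in the 4 APP and 4 WT CD11c-negative replicates of hippocampus (points). APP replicates lie at 814 to 954 genes per cell and WT replicates at 507 to 713, and both genes are lower in each APP replicate than in each WT replicate.

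Other measures moved with the genotype in these hippocampal cells. Mean detected genes per cell were 814 to 954 in APP against 507 to 713 in WT replicates, the mean mitochondrial share was 1.11 to 1.33% against 0.601 to 0.728%, and the 10 microglial markers summed to 18210 to 21089 CPM against 12705 to 15393 CPM, none of them overlapping. With detected genes per cell as a covariate, Insig1 kept its call (-2.42, adjusted p = 0.011, edgeR) and Abcg1 did not (-0.70, adjusted p = 0.11, edgeR). Without the libraries of differing genotype tag both kept it, with adjusted p of 0.0024 for Insig1 and 0.00076 for Abcg1 (edgeR). The part of the mitochondrial share and of the marker level in these differences was not tested.

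In cortex, 0 of the 7 members passed in CD11c-negative APP over WT cells, where edgeR called 0% of all genes, 0 of 14892, with 1354 at an unadjusted p under 0.05; DESeq2 called 245. Insig1 stood at -0.06 ± 0.28 and Abcg1 at 0.31 ± 0.16 (SE; adjusted p = 1 and 0.58, edgeR). The sign of the Insig1 value changed between settings.

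The difference between the regions was tested as an interaction, that is the APP-over-WT change in hippocampus minus that in cortex. Insig1 and Abcg1 were called and 0 members were called higher, where 1.01% of all genes were called. The log2 interaction was -2.15 ± 0.40 for Insig1 (adjusted p = 0.0047, edgeR) and -1.38 ± 0.22 for Abcg1 (adjusted p = 0.0012, edgeR), and -1.17 ± 0.37 for Soat1, which did not pass (adjusted p = 0.14, edgeR) and was -0.34 without the libraries of differing tag. The calls of Insig1 and Abcg1 ended with detected genes as a covariate (-2.43, adjusted p = 0.11 for Insig1 and -0.95, adjusted p = 0.14 for Abcg1, edgeR) and without the libraries of differing tag (adjusted p = 0.22 for Insig1 and 0.088 for Abcg1, edgeR).

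**Figure D4:**
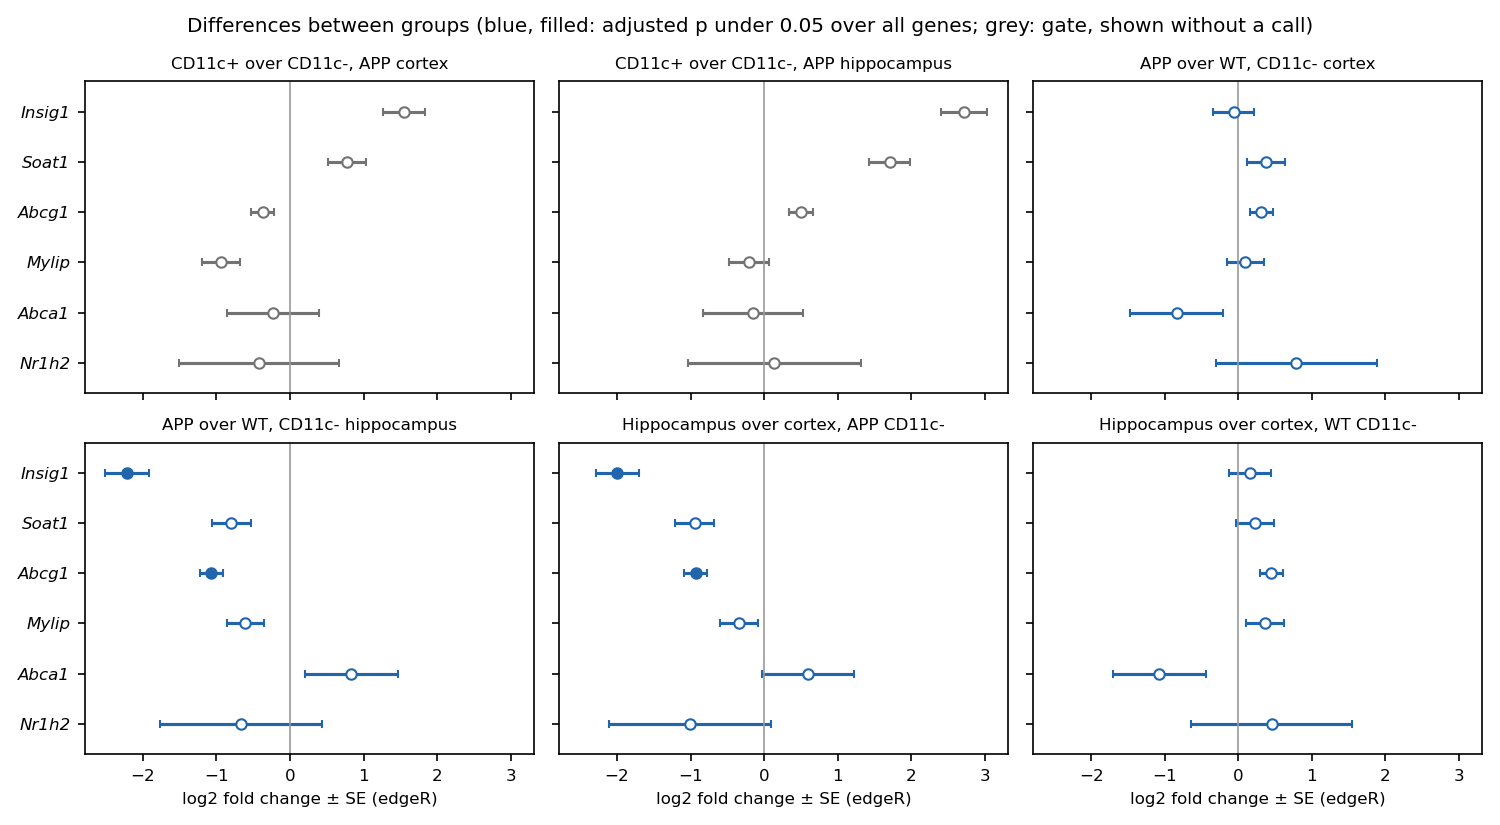
Log2 fold change (x axis) with its SE from edgeR for Insig1, Soat1, Abcg1, Mylip, Abca1 and Nr1h2 in 6 comparisons, 1 per panel; filled blue points have an adjusted p under 0.05 over all genes tested, and the grey gate panels are shown without a call. Insig1 and Abcg1 are the filled points in CD11c-negative hippocampus of APP over WT mice and in hippocampus over cortex of APP mice.

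Comparing the regions within CD11c-negative APP cells gave 2 members lower and 0 higher in hippocampus than in cortex, where 2.29% of all genes were called. Insig1 stood at -1.99 ± 0.29 (SE; adjusted p = 0.0011, edgeR) and Abcg1 at -0.93 ± 0.16 (adjusted p = 0.0019, edgeR), and Soat1 at -0.95 ± 0.26 did not pass (adjusted p = 0.059, edgeR). Soat1 passed without CD11c-negative APP cortical replicate 3 (-1.21, adjusted p = 0.012, edgeR), without CD11c-negative APP hippocampal replicate 4 (-1.26, adjusted p = 0.014, edgeR) and by DESeq2 (-0.85, adjusted p = 0.024), and was at -0.55 without the libraries of differing tag. This comparison, the hippocampal genotype comparison and the interaction share the CD11c-negative APP hippocampal replicates, so their values for a gene do not stand independently of each other. The regions were paired by animal; with the animal as a block and only these groups in the fit, Insig1 was at -2.01 (adjusted p = 0.085, edgeR) and Abcg1 at -0.93 (adjusted p = 0.070, edgeR), and no gene was called. The 6 neuronal markers examined summed to 1.77 to 107 CPM in APP hippocampus against 481 to 841 CPM in APP cortex, and the 10 microglial markers to 18210 to 21089 against 10524 to 13301 CPM; their part was not tested.

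In WT cells, 0 of 7 members were called between hippocampus and cortex, where 1.63% of all genes were called. Insig1 was at 0.16 ± 0.28 (SE) and Abcg1 at 0.45 ± 0.16 (adjusted p = 0.88 and 0.12, edgeR). Without WT cortical replicate 1, Abcg1 passed in this comparison at 0.61 (adjusted p = 0.040, edgeR). In CD11c-positive APP cells 0 of 7 members were called between the regions, where 0.222% of all genes were called, and Insig1 stood at -0.82 ± 0.31 (adjusted p = 0.34, edgeR). With only these 2 groups in the fit, it passed at -0.81 (adjusted p = 0.033, edgeR). The neuronal markers summed to 40.8 to 185 CPM in CD11c-positive hippocampus against 579 to 1025 CPM in CD11c-positive cortex, the oligodendrocyte markers to 48.6 to 94.1 against 379 to 508 CPM and the astrocyte markers to 134 to 145 against 584 to 1502 CPM; their part was not tested.

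Whether the gate difference itself depended on the region was tested in the same fit. The difference of the hippocampal from the cortical gate change was 1.17 ± 0.42 for Insig1 and 0.87 ± 0.23 for Abcg1 (SE), and 0 of 7 members passed. In this comparison edgeR called 0% of all genes, 0 of 14892, with 1116 at an unadjusted p under 0.05; DESeq2 called 246.

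Other genes of cholesterol handling were read from 5 lists, which were also chosen with earlier results known. Of the 14 tested genes of liver X receptor targets and lipoproteins, 1 was called higher and 0 lower over the gate in cortex, where 1.23% of all genes were called, and 2 higher and 0 lower in hippocampus, where 0.551% were. Apoe, the main apolipoprotein of the brain, was called in both, with 4666 ± 463 CPM in CD11c-positive against 408 ± 227 CPM in CD11c-negative APP cortex (SD, n = 4 each). In hippocampus it had 4509 ± 414 CPM (n = 3) against 274 ± 158 CPM (n = 4). Lpl, which encodes lipoprotein lipase, was called in hippocampus, with 610 to 1113 CPM in CD11c-positive against 0.818 to 14.5 CPM in CD11c-negative APP replicates. Its hippocampal gate call ended with detected genes as a covariate and without CD11c-negative replicate 1 or 2, and the cortical call of Apoe without the libraries of differing tag. The list had no call between the genotypes in either region. Lpl was also called between hippocampus and cortex of WT cells (1.63% of all genes called) and in the genotype by region interaction (1.01%), with 0 to 72.5 CPM in WT hippocampus and 0 CPM in all 4 WT cortical replicates. The call in WT cells ended with detected genes as a covariate, without the libraries of differing tag, and without WT cortical replicate 2 or 4 or WT hippocampal replicate 3. The interaction ended with the covariate, without those libraries, and with only these groups in the fit, with or without the replicate block (adjusted p from 0.083 to 0.13, edgeR).

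Of the 25 tested genes of the SREBP2 pathway, which makes cholesterol and takes it up, 0 were called over the gate in either region. The median log2 fold change was 1.30 in cortex against 0.19 over all genes, and 0.99 in hippocampus against 0. Several genes of the list lay at or near 0 CPM in CD11c-negative APP cells, where log2 fold changes are large and uncertain. Detected genes per cell also moved with the gate. The part of both in the medians was not tested, and no rise of the pathway is read from them. Msmo1, which encodes an enzyme of late sterol synthesis, had 89.4 to 248 CPM in CD11c-positive against 0.902 to 72.3 CPM in CD11c-negative APP cortex. Between the genotypes in hippocampus, where 1.52% of all genes were called, 1 gene of the list was called, higher in APP: Cyp51, which encodes lanosterol demethylase, at 0 to 62.3 CPM in APP against 0 to 0.282 CPM in WT replicates, so that the groups met at 0. Cyp51 kept its call in 4 of 14 alternative fits, and lost it among others without any single WT replicate, with detected genes as a covariate (adjusted p = 0.19, edgeR) and without the libraries of differing tag (adjusted p = 0.31, edgeR).

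Of 11 tested genes of ester turnover and lysosomal egress, 1 was called higher and 0 lower over the gate in each region, where 1.23% of all genes were called in cortex and 0.551% in hippocampus. This was Npc2, which binds cholesterol in the lysosome, at 2.17 ± 0.36 in cortex and 1.87 ± 0.37 in hippocampus (log2, SE). The hippocampal call ended with detected genes as a covariate and without CD11c-negative replicate 1 or 2 or CD11c-positive replicate 1-2 or 2-3. Nceh1, a cholesterol ester hydrolase, was the 1 gene of the list called lower in hippocampus than in cortex in CD11c-negative APP cells, at 0 CPM in all hippocampal replicates against 0.720 to 43.8 CPM in cortical ones, where 2.29% of all genes were called. It kept its call in 6 of 14 alternative fits, and lost it without the libraries of differing tag (adjusted p = 0.26, edgeR) and without any single hippocampal replicate; with the animal block edgeR called 0 genes in this comparison. Of 10 tested genes of oxysterol formation, binding and sensing, 0 were called over the gate or between the genotypes. Gpr183, a receptor for an oxysterol derived from the Ch25h product, had 31.1 to 104 CPM in CD11c-positive against 6.72 to 172 CPM in CD11c-negative cells of APP cortex, and 53.3 to 200.1 against 28.5 to 135 CPM in APP hippocampus. Rora, an orphan receptor, was the 1 called between regions of WT cells, at 0 CPM in hippocampus against 19.3 to 73.1 CPM in cortex, where 1.63% of all genes were called. It kept its call in 6 of 16 alternative fits, and lost it without the libraries of differing tag (adjusted p = 0.22, edgeR), with only these groups in the fit (adjusted p = 0.069, edgeR), with the animal block (adjusted p = 0.43, edgeR) and without any single hippocampal replicate.

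Of 8 tested nuclear receptor partners and corepressors, 1 gene accounted for every call. The comparisons that called it, and the share of all genes called in each, were the cortical gate (1.23%), the genotypes in hippocampus (1.52%), their interaction with region (1.01%), and the regions in WT cells (1.63%) and in CD11c-negative APP cells (2.29%). Ncoa3, a coactivator of nuclear receptors, averaged 1535 ± 237 CPM in CD11c-negative APP against 3435 ± 399 CPM in WT hippocampus (SD, n = 4 each). It fell there (log2 fold change -1.16 ± 0.17, SE; adjusted p = 0.000203, edgeR), and its interaction with region was -1.40 ± 0.24 (adjusted p = 0.0020, edgeR). With detected genes as a covariate the genotype call ended (-0.72, adjusted p = 0.093, edgeR), and the interaction ended with the covariate (-0.87, adjusted p = 0.18, edgeR) and without the libraries of differing tag (adjusted p = 0.098, edgeR). Over the gate it was lower in cortex (-1.02 ± 0.17) and not called in hippocampus; the cortical call ended with the covariate (-0.53) and without those libraries (-0.85). It was also called between hippocampus and cortex, higher in hippocampus in WT cells (0.69 ± 0.17) and lower in CD11c-negative APP cells (-0.71 ± 0.17). The call in WT cells held in 5 of 16 alternative fits and ended without any single hippocampal replicate, with only these groups in the fit (adjusted p = 0.076, edgeR), with the animal block (adjusted p = 0.34, edgeR), with the covariate (adjusted p = 0.45, edgeR) and without the libraries of differing tag (adjusted p = 0.22, edgeR). The call in CD11c-negative APP cells held in 11 of 16 and ended with RLE scaling (adjusted p = 0.054, edgeR), with the animal block (adjusted p = 0.12, edgeR), without the libraries of differing tag (adjusted p = 0.16, edgeR) and without cortical or hippocampal replicate 2.

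Genes whose levels ran most closely with the members over the 23 replicates were taken by Pearson's r of log2(CPM + 1) among 3480 genes with a mean of at least 50 CPM. For Insig1 they were Sod1 (r = 0.89), Gm2a (0.88) and Plau (0.84), for Soat1 Gm6988 (0.91), Sod1 (0.85) and Fam221b (0.85), and for Abcg1 Dpysl2 (0.92), Yme1l1 (0.91) and Kdelr2 (0.91). The nearest to Mylip were Zcchc8 (0.90), Tpm3 (0.84) and Ifngr1 (0.82), and the nearest to Abca1 were Asah1 (0.70), St7l (0.68) and Dpf2 (0.66). Among the members the closest pair was Insig1 and Soat1 (0.81). Part of this likeness lay between groups for some pairs: after group means were taken off, r was 0.13 for Insig1 with Sod1, 0.33 for Insig1 with Gm2a and 0.68 for Abcg1 with Dpysl2. It was 0.78 for Mylip with Zcchc8. For Abca1 it was higher than before with Asah1 (0.78) and St7l (0.71) and lower with Dpf2 (0.62). The replicates share groups, animals and libraries, so these values are a description.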

How the data were processed

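Single cells were sorted into plates and sequenced by a Smart-seq2-based protocol, per the labels' protocols. UMI-tools 0.5.3, HISAT2 2.1.0 and featureCounts 1.6.0 and the build GRCm38 (mm10) are named in the submitters' processing notes. The deposited files hold raw counts for each gene and barcode. The sources used here do not say whether molecular identifiers were merged. Of the nonzero entries 27.0% were 1 and 35.9% were 20 or more. If identifiers were not merged, counts are not separate molecules, and the intervals of the Ch25h ratios do not cover counting error in full. The 36 libraries held 956491 to 2340598 counts and 2660 barcodes, and the 2657 with 200 or more genes and no more than 20% mitochondrial counts stayed in. Doublets were not called. No cell type was named from clusters.

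Groups came from titles, and counts were summed per animal, region and gate into 23 replicates. Nothing says that all replicates came from separate litters or days, so p-values measure the spread between these samples. edgeR 4.0.16 (R 4.3.3, limma 3.58.1) was used with TMM scaling, filterByExpr, and 1 fit over 6 groups (17 residual degrees of freedom). Its quasi-likelihood test was adjusted by Benjamini-Hochberg over 14892 genes, at 0.05. The script was tested on simulated data. Titles pair gates and regions by animal, although the correlations of deviations between same-numbered replicates lay between -0.062 and 0.076. Numbers shared between genotypes are only numbers. A replicate block in a genotype comparison or its interaction with region thus joins different animals and is no pairing. DESeq2 1.42.0, RLE scaling, no filter, fits of the compared groups only, a replicate block, detected genes per cell as covariate, all barcodes, tag-agreeing libraries and leaving out single replicates were the alternatives.

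The members and the lists were chosen with earlier results of these data known. By rule, the 8 members were named throughout, from each list the members past adjusted p 0.05 in a comparison (at most 4) and otherwise at most 2 with the highest mean CPM, and for each member with a mean of at least 50 CPM the 3 genes most like it. Not every gene that the rule allows is printed. Some genes of the lists are not reported here.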

Additional observations from a re-analysis of the deposited data

Results flagged for a closer look

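The change of APP over WT CD11c-negative cells differed between hippocampus and cortex for Insig1 (log2 interaction -2.15 ± 0.40, SE) and for Abcg1 (-1.38 ± 0.22), by the test of the difference itself. Both calls ended with the number of detected genes as a covariate (adjusted p = 0.11 for Insig1 and 0.14 for Abcg1, edgeR) and without the libraries whose genotype tag differs from the title (0.22 and 0.088).

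Single replicates lay far from the other 3 of their group in 8 of the 40 sets of 4 replicates examined, and chance flags about 1 in 20. Of these, 7 concern genes that are at or near 0 in the group. Ch25h was at 1.80 CPM in CD11c-negative APP cortex replicate 3, at 0.818 CPM in CD11c-negative APP hippocampus replicate 4 and at 1.69 CPM in WT hippocampus replicate 1, with the others of each group at 0. Nr1h3 was at 6.29 CPM in CD11c-positive cortex replicate 3, at 1.02 CPM in CD11c-negative APP cortex replicate 4, at 0.818 CPM in CD11c-negative APP hippocampus replicate 4 and at 0.436 CPM in WT cortex replicate 2. Nr1h2 was at 65.5 CPM in WT hippocampus replicate 4, against 29.0 CPM in the lowest replicate of that group. All 128 Nr1h2 counts of replicate 4 came from a single cell.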

How the results depend on the processing

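Of 27 member values and comparisons followed, 178 of 200 values under other settings and 230 of 248 with 1 replicate left out kept their direction and side of the threshold; those that end a call in the genotype and region comparisons stand beside the results. Insig1 in APP over WT cortex changed sign with detected genes as a covariate (0.014) and with the replicate block (0.017), and ran from -0.28 to 0.17 with 1 replicate left out; in hippocampus over cortex of WT cells it ran from -0.061 to 0.39, and Abcg1 over the cortical gate was 0.028 with the covariate. Mylip was called lower over the cortical gate with RLE, no filter, fits of the 2 groups only and DESeq2 (-0.98 to -1.02).

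Counts of genes called moved by over 1.5 times as follows, and the cause was not tested. DESeq2 called 616 over the cortical gate, 532 over the hippocampal gate, 245 between genotypes in cortex, 1072 in hippocampus, 1601 between regions in WT, 1167 in CD11c-negative and 652 in CD11c-positive APP cells, 246 for gate by region and 798 for genotype by region. The covariate gave 53 over the cortical and 28 over the hippocampal gate, 25 between genotypes in hippocampus, 8 between regions in WT and 54 in CD11c-positive cells, and 0 for genotype by region. Tag-agreeing libraries gave 38 over the cortical gate, 106 between genotypes in hippocampus, 0 between regions in WT and 75 in CD11c-negative APP cells, and 0 for genotype by region. Fits of the compared groups only gave 434 over the cortical gate, 99 between genotypes in hippocampus, 0 between regions in WT, 452 in CD11c-positive cells and 1 for gate by region. Adding the replicate block gave 0 between regions in WT and in CD11c-negative APP cells. Between genotypes in hippocampus it gave 69 (Insig1 adjusted p = 0.038, Abcg1 0.0061, edgeR), but there the block joins different animals that only share a number. No filter gave 1 between genotypes in cortex, 78 between regions in CD11c-positive cells and 2 for gate by region. With 1 replicate left out the counts ran from 115 to 145 and 30 to 59 over the cortical and hippocampal gates, from 0 to 0 and 169 to 259 between genotypes in cortex and hippocampus, from 96 to 324, 183 to 315 and 7 to 30 between regions in WT, CD11c-negative and CD11c-positive APP cells, and from 0 to 0 and 118 to 174 for gate and genotype by region. RLE scaling moved the median of all genes to 0.14 in place of 0.01 for the hippocampal genotype, -0.34 in place of -0.22 for regions in WT, -0.24 in place of -0.11 for gate by region and 0.38 in place of 0.18 for genotype by region.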
